A study of Mus musculus with 6 samples.

Results

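The 10 genes described here encode the receptor for interleukin-1 (IL-1) and the proteins that first pass its signal on inside the cell: Il1r1, Il1r2, Il1rap, Myd88, Tollip, Irak1, Irak2, Irak3, Irak4 and Traf6. They were chosen by name from the pathway, with earlier results of these data known. All 10 were found among the 23282 genes of the deposited table. Primary hepatocytes from livers of C57BL6/N mice were left without treatment (control, 3 libraries) or given recombinant IL-1β protein for 24 h (IL-1β, 3 libraries). The labels do not say whether the libraries of a group came from separate animals, so the p-values measure only the spread between these cultures. RNA was sequenced by QuantSeq, a method that counts mRNAs from reads near their 3′ ends.

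IL-1β binds the receptor IL-1R1, which then recruits the accessory protein IL-1RAcP, encoded by Il1rap. The intracellular domains of this pair gather the adaptor MyD88 and the kinases IRAK4, IRAK1 and IRAK2, and the ubiquitin ligase TRAF6 carries the signal towards the TAK1 and IKK kinase complexes, NF-κB and the MAP kinases. The decoy receptor IL-1R2, the adaptor Tollip and the kinase-like protein IRAK-M, encoded by Irak3, are known for holding this signal back. In the liver, hepatocytes answer IL-1 by making acute phase proteins.

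After IL-1β, mRNAs of the signalling receptor and of IRAK-M rose most, Il1r1 by 4.16-fold and Irak3 by 4.71-fold. Tollip and Irak2 rose by 1.28-fold and 1.21-fold. For Irak4, Irak1, Traf6, Myd88 and Il1rap no change passed the test, and Il1r2 was at the limit of detection in both groups. Of the 9 genes with enough reads to be tested, 4 were thus higher at an adjusted p below 0.05 and 0 were lower. At an unadjusted p below 0.05, 6 were higher, with Il1rap and Myd88 added, and 0 lower. Of all 11657 tested genes, 6.97% were higher at the adjusted threshold and 6.44% lower. Here and below, levels are CPM, read counts brought to the same library total after TMM scaling, and the test is the quasi-likelihood test of edgeR with Benjamini-Hochberg adjustment over all 11657 genes. The median log2 fold change of the 9 genes was 0.28, beside -0.002 for all tested genes.

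**Figure D1:**
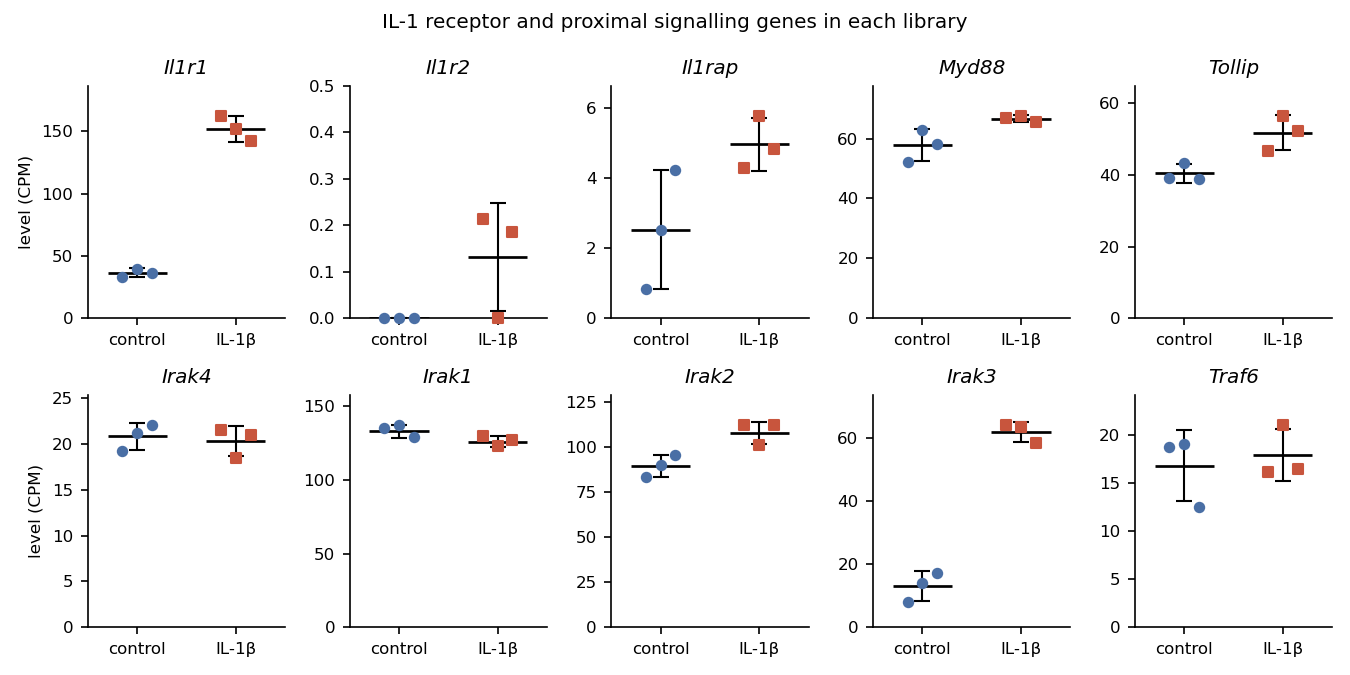
Levels (CPM, linear axes from 0) of the 10 genes in each library, with controls as circles and IL-1β libraries as squares, and the mean ± SD of each group in black. Il1r1 and Irak3 stand clear of their controls in every IL-1β library, while Il1r2 stays below 0.25 CPM throughout.

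Total counts per library ranged from 9538741 to 11105408, so that 3 counts, taken as the limit of detection, correspond to 0.269 to 0.321 CPM (counting error only). Control replicate 1 stood apart from the other controls on the second principal component, and results that change without it are given with the gene. The hepatocyte markers Alb, Apoa1 and Ttr reached means of 16200, 2265 and 1396 CPM in control cultures. Cps1, an enzyme of the urea cycle that is abundant in hepatocytes, had only 19 to 33 counts per control library. The reason for these low counts was not tested.

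Il1r1 encodes the receptor chain that binds IL-1 and signals. It lies on the plus strand of chromosome 1, from 40225080 to 40316177 on the mm10 build. Its level was 33.1, 40.0 and 36.6 CPM in the control libraries and 162, 152 and 142 CPM in the IL-1β libraries. The lowest IL-1β library thus lay far above the highest control, and the spread within each group was small. The log2 fold change was 2.06 (standard error 0.09, 95% interval 1.87 to 2.24, adjusted p = 6.35e-15 from edgeR). By size of increase, Il1r1 ranked 86 among the 11657 tested genes. Leaving out any single library gave values from 1.99 to 2.13. In bulk RNA, more cells of a type and more RNA per cell cannot be told apart. In GENCODE a coding transcript of Il1r1 ends 1080 bases past the end of the interval in the deposited table, and whether reads from that end were counted is not given in the sources used here.

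RefSeq places transcription starts of Il1r1 at the beginning of this interval and at a second site inside it, and reads at the 3′ end cannot tell transcripts from these starts apart. The 250 bases before each start are shown because Il1r1 is among the genes that rose most. They are given 5′ to 3′ on the plus strand of GRCm38.p6, at chr1:40224830-40225079 and chr1:40266336-40266585, with capitals for matches to the C/EBP motif TTNNGNAA or the NF-κB motif (3 G, 5 bases of any kind and 2 C) on either strand, overlapping matches included.
Il1r1, first start: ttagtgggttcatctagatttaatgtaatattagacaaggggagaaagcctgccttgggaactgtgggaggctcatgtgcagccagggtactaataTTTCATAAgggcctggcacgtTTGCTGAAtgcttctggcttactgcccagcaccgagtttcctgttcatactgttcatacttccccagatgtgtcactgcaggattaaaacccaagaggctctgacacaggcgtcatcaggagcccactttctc
Il1r1, second start: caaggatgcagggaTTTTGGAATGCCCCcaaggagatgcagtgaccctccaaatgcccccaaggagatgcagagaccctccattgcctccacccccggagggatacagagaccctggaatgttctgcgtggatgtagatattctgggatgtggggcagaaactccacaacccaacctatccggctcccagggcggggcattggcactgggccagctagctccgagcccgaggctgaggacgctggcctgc
The first window held 2 C/EBP matches, at 154 and 133 bases before the start, and no NF-κB match. The second held a C/EBP match at 236 and an NF-κB match at 232 bases before the start, which overlap. These letters are common, as 45.8% of the 32851 RefSeq windows of this length hold an NF-κB match, 36.8% a C/EBP match and 6.75% a match to the AP-1 motif TGANTCA.

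Il1r2 encodes a decoy that binds IL-1 but lacks the signalling domain. It is the upstream neighbour of Il1r1, at 40084768 to 40125226 on chromosome 1, on the same strand. It had 0 counts in every control library, and 2, 0 and 2 counts in the IL-1β libraries, below the 3 counts taken as the limit in each. No fold change is given, since both groups were at or under this limit. The 4 genes that follow Il1r1 in the same receptor cluster encode other receptors of the family, and their counts were at most 5 in any library. Il1rl2, which encodes the IL-36 receptor, had 4 counts in a single IL-1β library and 0 elsewhere. Il1rl1, which encodes the IL-33 receptor ST2, had 1 count in all libraries together. Il18r1 and Il18rap encode the chains of the IL-18 receptor, and the first was at 0 throughout while the second had at most 1 count per control library and 5, 1 and 0 counts after IL-1β. In this cluster of 6 genes, which runs to 40551705, Il1r1 was therefore the gene with counts above the limit in all libraries.

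Il1rap encodes the accessory chain IL-1RAcP, which IL-1R1 needs in order to signal. It lies on the plus strand of chromosome 16, from 26581705 to 26725147. Its level was 0.846, 2.51 and 4.23 CPM in the controls and 4.28, 5.76 and 4.83 CPM after IL-1β. All 3 IL-1β libraries lay above the controls, although control replicate 3 came close to the lowest of them, and control replicate 1 had only 9 counts. The log2 fold change was 0.98 (standard error 0.393, 95% interval 0.17 to 1.79) and did not pass the test (adjusted p = 0.112 from edgeR). It was 1.55 (adjusted p = 0.0163) without control replicate 3 and 0.57 (adjusted p = 0.342) without control replicate 1. The call also changed under a block on the replicate number (1.1, adjusted p = 0.0478), with no filter on low counts (0.98, adjusted p = 0.0313) and with limma (0.87, adjusted p = 0.047). GENCODE lists 4 coding transcripts of Il1rap, with ends from 26702356 to 26725264, and the deposited count does not separate short, soluble forms of the protein from the membrane form. The antisense gene Gm20319 overlaps the 3′ end of Il1rap, and reads of this pair cannot be told apart unless strand was used in counting, which is not given in the sources used here.

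At the level of the receptor, mRNA of the chain that binds IL-1 rose. The accessory gene Il1rap gave fewer reads than Il1r1 in every library of both groups. The farthest GENCODE end of Il1rap lies 117 bases past the interval in the table, and that of Il1r1 1080 bases past it. Whether reads from these ends were counted is not given in the sources used here. The log2 ratio of Il1rap to Il1r1 was -4.13 ± 1.1 (SD, n = 3) in control cultures and -4.95 ± 0.27 (SD, n = 3) after IL-1β. These values overlapped between groups (difference -0.81, two-sided exact permutation test, p = 0.4, and 0.4 after adjustment over 4 ratios). The difference was -1.39 without control replicate 1 and -0.3 without control replicate 3 (exact permutation p = 0.2 and 0.8). With a library left out, 0.2 is the smallest p that this test allows. With 1 CPM added to each level it was -1.16 (exact permutation p = 0.1, the smallest that 3 against 3 libraries allow). Reads were primed at the poly(A) end of each transcript, so counts do not grow with transcript length and were not divided by it.

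Of the adaptors, Myd88 links the receptor to the IRAK kinases, and Tollip binds the receptor and IRAK1 and is known to restrain signalling. Tollip lies on the minus strand of chromosome 7, from 141881585 to 141902406, and measured 39.1, 43.3 and 38.7 CPM in control libraries and 46.6, 56.3 and 52.1 CPM after IL-1β. The groups did not overlap, with the lowest IL-1β library just above the highest control. The log2 fold change of Tollip was 0.36 (standard error 0.102, adjusted p = 0.0189 from edgeR). A GENCODE transcript of Tollip ends 6772 bases past the interval in the table. The call was lost without control replicate 3 (adjusted p = 0.0724), IL-1β replicate 2 (0.127) or IL-1β replicate 3 (0.0677).

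Myd88, on the minus strand of chromosome 9 from 119335988 to 119340040, measured 52.2, 62.7 and 58.3 CPM in the controls and 66.9, 67.4 and 65.4 CPM after IL-1β. All IL-1β libraries lay above all controls, but the gap was small against the spread of the controls. Its log2 fold change of 0.20 (95% interval 0.02 to 0.39) had an adjusted p of 0.167 from edgeR. The 3′ end of Myd88 lies within the span that GENCODE gives to Slc22a14 on the same strand. The log2 ratio of Tollip to Myd88 was -0.52 ± 0.09 (SD, n = 3) in controls and -0.37 ± 0.14 (SD, n = 3) after IL-1β (exact permutation test, two-sided p = 0.2, and 0.267 after adjustment over 4 ratios).

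Irak3 encodes IRAK-M, an inactive relative of the IRAK kinases that limits signalling from IL-1 and Toll-like receptors and is best known from monocytes and macrophages. It lies on the minus strand of chromosome 10, from 120141654 to 120201537. Its level was 7.99, 14.1 and 17.3 CPM in the control libraries and 63.9, 63.4 and 58.3 CPM in the IL-1β libraries. The IL-1β libraries were close to each other and far above the controls, among which replicate 1 was lowest. The log2 fold change was 2.24 (standard error 0.161, 95% interval 1.9 to 2.57, adjusted p = 8.74e-11 from edgeR), rank 79 among the 11657 tested genes by size of increase. Leaving out any single library gave values from 1.98 to 2.47.

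For Irak3, RefSeq lists starts at 2 sites, and the 250 bases before each are shown as the counterpart to those of Il1r1. They lie on the minus strand of GRCm38.p6 at chr10:120201598-120201847 and chr10:120202131-120202380 and are printed 5′ to 3′ with capitals for matches to the NF-κB motif on either strand.
Irak3, downstream start: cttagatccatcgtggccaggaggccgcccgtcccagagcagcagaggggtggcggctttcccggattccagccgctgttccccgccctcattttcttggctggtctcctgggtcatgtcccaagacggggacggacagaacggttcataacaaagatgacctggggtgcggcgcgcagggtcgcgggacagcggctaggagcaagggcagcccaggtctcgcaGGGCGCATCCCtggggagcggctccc
Irak3, upstream start: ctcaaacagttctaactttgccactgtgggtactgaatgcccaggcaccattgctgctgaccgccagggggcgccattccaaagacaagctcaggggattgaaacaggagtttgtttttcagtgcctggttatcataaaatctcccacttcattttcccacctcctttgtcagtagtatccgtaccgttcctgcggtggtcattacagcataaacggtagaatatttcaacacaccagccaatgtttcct
The first window held 2 overlapping NF-κB matches, at 26 and 25 bases before the start, and no C/EBP or AP-1 match. The second held no match to any of these 3 motifs. Among all 10 genes, 7 had an NF-κB match in a window, 3 a C/EBP match and 0 an AP-1 match. Genes without a called change, such as Il1rap with 6 NF-κB matches and Irak1 with 2 in each of its windows, were among the 7. The windows of Irak1 overlap and share these matches, and some of those in Il1rap overlap each other. The 7 is a count of genes, some with 2 windows, whereas the shares given with Il1r1 are of single windows.

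Because Irak3 and the macrophage are closely linked, macrophage markers are given beside it. Of 13 markers of Kupffer cells and macrophages, 10 could be tested, and 1 was higher and 0 lower. The gene that rose was Cd14, a co-receptor for bacterial lipopolysaccharide that hepatocytes also express, from 230 ± 48.5 to 719 ± 19.6 CPM (SD, n = 3 each). Without Cd14, a choice made after its values were seen, the summed level of the other 12 markers was 211 to 242 CPM in controls and 215 to 244 CPM after IL-1β. Most of that sum was Cd68, and the 11 markers left without it summed to 36.4 to 38.9 CPM in controls and 37.1 to 46.2 CPM after IL-1β. The log2 fold changes of the 10 tested markers had a median of 0.38, with 8 above 0, 2 below 0 and 3 at an unadjusted p below 0.05. Among those above 0, C1qa was at 0.75 (95% interval 0.0 to 1.49, adjusted p = 0.211), Marco at 0.67 (0.08 to 1.26, adjusted p = 0.141) and Adgre1 at 0.64 (-0.57 to 1.85, adjusted p = 0.582). The 2 below 0 were Cd68 and Cd5l, which had log2 fold changes of -0.06 (adjusted p = 0.7) and -0.21 (adjusted p = 0.392, both from edgeR). Timd4, a defining marker of resident Kupffer cells, had at most 1 count in any library, but other Kupffer cell markers of the list did have reads. Mean levels in controls and after IL-1β were 19.9 and 17.2 CPM for Cd5l and 3.99 and 6.33 CPM for Marco. Clec4f had 4, 27 and 7 counts in controls and 6, 0 and 9 counts after IL-1β.

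Markers of other cells that carry IL-1 receptors were looked at in the same way. Of 9 neutrophil markers listed, 5 (Elane, Mpo, Retnlg, S100a9 and Ngp) were at 0 in all libraries, and S100a8 went from 0 counts in every control to 19, 36 and 51 counts. Of 9 endothelial markers tested, 1 was higher and 2 were lower, and their summed level was 83.8 to 93.0 CPM in controls and 82.4 to 87.7 CPM after IL-1β. The 2 that were lower were Clec4g, at -2.87 on the log2 scale (adjusted p = 1.9e-05 from edgeR), and Kdr, at -1.49 (adjusted p = 0.00511), both markers of liver sinusoidal or other endothelium. The most abundant, Eng, Lyve1 and Cdh5, had log2 fold changes of 0.02, 0.45 and 0.32, of which Lyve1 passed the test (adjusted p = 0.0274). Of 9 lymphocyte markers, 5 were at 0 throughout. Stellate cell markers, led by Dcn, summed to 20.9 to 25.4 CPM in controls and 22 to 28.1 CPM after IL-1β. Of 9 hepatocyte markers tested, 8 were lower and 0 higher, with log2 fold changes from -1.39 for Ahsg, which encodes fetuin-A, to -0.2 for Alb. Of these 9 markers, DESeq2 called 7 and limma 6. Apoa1 was at -0.33 and Ttr at -0.35. Of 3 cholangiocyte markers tested, 1 was lower, Spp1, from 190 ± 1.95 to 82.7 ± 5.17 CPM (SD, n = 3 each). The part of these cells in the changes of the receptor genes was not tested.

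IRAK4, IRAK1 and IRAK2 are the members of the IRAK family that pass the signal forward. IRAK4 is the kinase that MyD88 recruits first. Irak4, on the plus strand of chromosome 15 from 94543660 to 94568316, measured 19.2, 21.2 and 22 CPM in controls and 21.5, 18.4 and 20.9 CPM after IL-1β. The groups overlapped, and the log2 fold change of -0.04 had a 95% interval of -0.31 to 0.24 (adjusted p = 0.922 from edgeR). Here too a transcript in GENCODE runs past the interval in the table, by 13499 bases. A change of Irak4 as large as that of Irak3 lies far outside this interval.

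IRAK1 is phosphorylated by IRAK4 and then binds TRAF6. Irak1 is on the minus strand of chromosome X, from 74013914 to 74023918. It measured 135, 137 and 129 CPM in the controls and 130, 123 and 127 CPM after IL-1β. The highest IL-1β library lay just above the lowest control. The log2 fold change was -0.08 (95% interval -0.23 to 0.07, adjusted p = 0.577 from edgeR).

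IRAK2 takes part in the same complex and is known for sustaining late signalling. Irak2, on the plus strand of chromosome 6 from 113638467 to 113695027, measured 83.1, 89.8 and 95.5 CPM in the controls. It measured 112, 101 and 112 CPM after IL-1β, above all controls. The log2 fold change of Irak2 was 0.28 (standard error 0.081, adjusted p = 0.0219 from edgeR). This call was lost without IL-1β replicate 1 (0.0932) or 3 (0.0903), without control replicate 1 (0.067) or 2 (0.0519), and with scaling by total counts (0.0786).

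**Figure D2:**
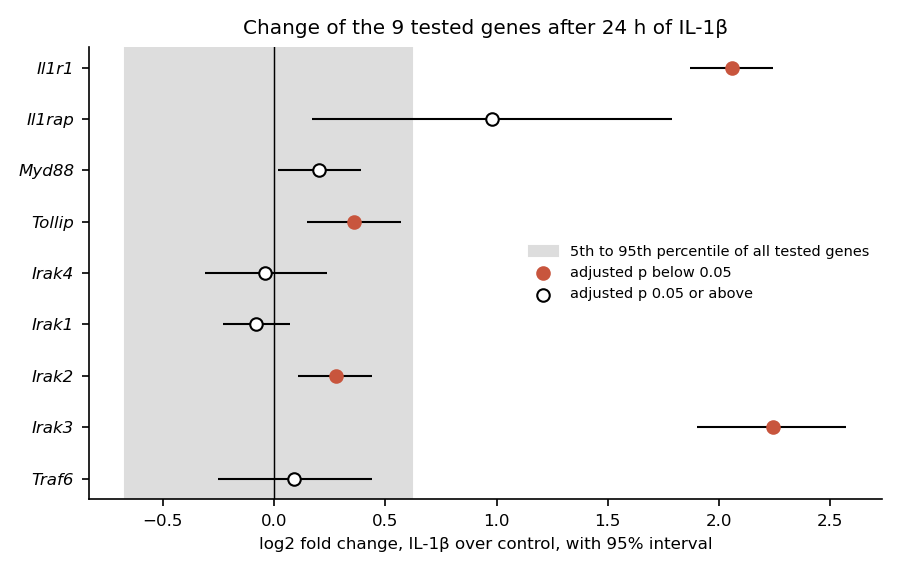
Log2 fold change of the 9 tested genes (points) with 95% intervals (lines), filled where the adjusted p is below 0.05. The grey band, from -0.67 to 0.62, holds the values between the 5th and 95th percentile of all 11657 tested genes. Il1r1 and Irak3 lie well to its right with their whole intervals.

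Irak3 made up a larger part of the IRAK reads in every IL-1β library than in any control. Irak3 took 3.26%, 5.39% and 6.58% of the IRAK reads in the control libraries and 19.5%, 20.7% and 18.3% in the IL-1β libraries. The share of Irak1 went from 52.0% ± 3.11 to 39.9% ± 0.252 (SD, n = 3 per group), that of Irak4 from 8.09% ± 0.255 to 6.39% ± 0.315, and that of Irak2 from 34.8% ± 1.31 to 34.2% ± 1.05. The summed level of the family was 257 ± 10.3 CPM in controls and 317 ± 10.7 CPM after IL-1β. The log2 ratio of Irak3 to Irak4 was -1.26, -0.58 and -0.34 in the controls and 1.57, 1.78 and 1.48 after IL-1β. Irak3 thus gave fewer reads than Irak4 in each control library and more in each IL-1β library. The difference was 2.34 (two-sided exact permutation test, p = 0.1, the smallest that 3 against 3 libraries allow, and 0.2 after adjustment over 4 ratios). The log2 ratio of Irak2 to Irak1 moved less, from -0.58 ± 0.14 to -0.22 ± 0.05 (SD, n = 3 per group, exact permutation p = 0.1, adjusted 0.2), again with no overlap.

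**Figure D3:**
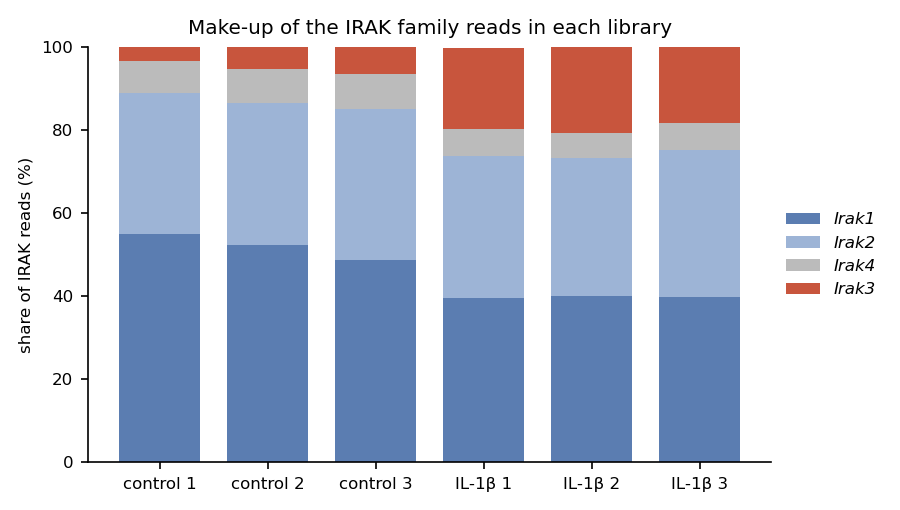
Share of the reads of Irak1, Irak2, Irak4 and Irak3 (stacked bars, percent of the IRAK family reads) in each of the 6 libraries. The part of Irak3, at the top, lies between 3.26% and 6.58% in the controls and between 18.3% and 20.7% after IL-1β.

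Traf6 encodes the ubiquitin ligase to which IRAK1 and IRAK2 pass the signal. It lies on the plus strand of chromosome 2, from 101678420 to 101701668. It measured 18.7, 19.1 and 12.5 CPM in the controls and 16.1, 21 and 16.5 CPM after IL-1β. The groups overlapped, and the log2 fold change was 0.09 (95% interval -0.25 to 0.44, adjusted p = 0.811 from edgeR).

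Over the 9 tested genes, the IL-1β and control libraries did not overlap in 6, all higher after IL-1β. Of all tested genes, 28.2% did not overlap, and in 14% of all tested genes the IL-1β libraries were the higher ones. The order of levels in control cultures was Irak1, Irak2, Myd88, Tollip, Il1r1, Irak4, Traf6, Irak3 and Il1rap. Among neighbours in this order, Tollip and Il1r1 overlapped in their control libraries, as did Traf6 and Irak3, while the other neighbours did not. After IL-1β, Il1r1 came first, with its lowest library at 142 CPM above the highest of Irak1 at 130 CPM.

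Genes around these 10 in the pathway were read from 8 lists with 77 genes in all. Of the 60 that could be tested, 14 were higher and 2 lower at an adjusted p below 0.05 from edgeR, and 44 were not called. Over all tested genes, 6.97% were higher and 6.44% lower at this threshold. The lists were written with earlier results of these data known. Of 7 other receptors of the IL-1 family, only Sigirr had enough reads. Sigirr encodes an inhibitory receptor that dampens IL-1 and Toll-like receptor signals, and it fell from 28, 31 and 25 counts in the controls to 2, 4 and 7 counts after IL-1β. No IL-1β library came near the controls. Its log2 fold change was -2.61 (standard error 0.531, adjusted p = 0.00101 from edgeR), and its mean control level was 2.64 CPM. The size of this change is uncertain, since IL-1β replicate 1 was under the limit of 3 counts. Of 8 ligands and antagonists, 5 were tested, 4 were higher and 0 lower. Il1rn encodes the receptor antagonist, which occupies IL-1R1 without signalling, and its level was 102 ± 14 CPM in controls and 291 ± 14.3 CPM after IL-1β (SD, n = 3 each, log2 fold change 1.52, adjusted p = 5.37e-13). The others were Il1f9 and Il1f6, which encode IL-36 cytokines, with log2 fold changes of 4.6 and 4.36, and Il33, which encodes the ligand of ST2, with 2.15. Il1f6 had only 9, 3 and 0 counts in the controls and 64, 84 and 97 after IL-1β, so the size of its change is uncertain (standard error 0.48).

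Of 9 subunits and kinases of the TAK1 and IKK complexes, all 9 were tested and 0 were higher or lower at an adjusted p below 0.05 from edgeR, 0 by DESeq2 and 0 at an unadjusted p below 0.05. The most abundant, Tab2 and Ikbkb, had log2 fold changes of 0.11 (95% interval -0.03 to 0.26) and 0.03 (-0.15 to 0.20). Of 5 adaptors of the Toll-like receptors, 3 were tested and 0 were called by edgeR or by DESeq2, with 1 at an unadjusted p below 0.05. The most abundant were Tirap, at 0.10 (-0.10 to 0.30), and Pik3ap1, at -0.33 (-0.64 to -0.02). Of 9 tested genes of the MAP kinase arm, 1 was higher, Mapkapk2, the kinase below p38, at 0.32 (adjusted p = 0.0049), and 1 was lower, Map2k3, a kinase above p38, at -0.32 (adjusted p = 0.00303).

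Relatives and partners of TRAF6 gave a few large changes among many small ones. Of 6 other TRAF genes tested, 1 was higher. Traf1, which itself lacks the ligase domain of its relatives, rose from 2, 4 and 4 counts to 17, 21 and 18 counts (log2 fold change 2.50, standard error 0.588, adjusted p = 0.00416 from edgeR). Of 13 ubiquitin ligases, conjugating enzymes and TRAF6 partners tested, 3 were higher and 0 lower. Tifa encodes a protein that binds TRAF6 and promotes its clustering, and it went from 12.8 ± 1.28 CPM to 66.1 ± 6.07 CPM (SD, n = 3 each, log2 fold change 2.37, adjusted p = 7.27e-14). Birc3, which encodes the ubiquitin ligase cIAP2, rose by 0.96 (adjusted p = 3.27e-05) and Sqstm1, which encodes the scaffold p62, by 0.23 (adjusted p = 0.00658).

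Of 14 inhibitors tested below the receptor, 5 were higher and 0 lower at an adjusted p below 0.05. With limma 6 were called, counted without regard to direction. The 5 were Tnfaip3, Zc3h12a, Socs3, Tnip1 and Socs1. At an unadjusted p below 0.05 there were 8, with Otud7b, Cyld and Dusp1 added. These added genes pointed lower, with log2 fold changes of -0.23, -0.25 and -0.28 (adjusted p = 0.0504, 0.0899 and 0.174 from edgeR). Tnfaip3, which encodes the ubiquitin-editing enzyme A20 that acts on TRAF6, went from 4.82 ± 1.01 CPM to 35.1 ± 3.19 CPM (SD, n = 3 each, log2 fold change 2.87, adjusted p = 1.2e-12 from edgeR). Tnip1, which encodes a partner of A20, rose by 1.20, Zc3h12a, which encodes an RNase that degrades inflammatory mRNAs, by 2.08, and Socs3 and Socs1, which encode suppressors of cytokine signalling, by 1.54 and 1.95. Socs1 is the least certain of the 5, with 23, 11 and 2 counts in the controls and 36, 67 and 31 counts after IL-1β. The median over the 14 genes was -0.04, so the increases were limited to part of the list.

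**Figure D4:**
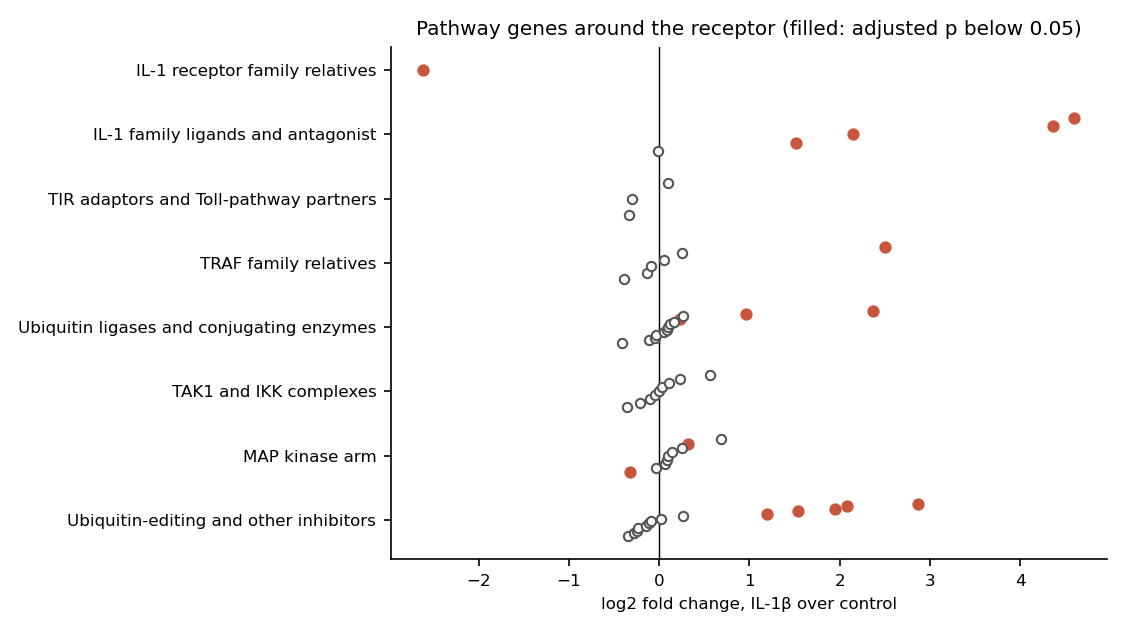
Log2 fold change of the 60 tested pathway genes (points), grouped by list from the other IL-1 family receptors at the top to the inhibitors at the bottom, filled where the adjusted p is below 0.05. None of the 9 TAK1 and IKK genes is filled, whereas Sigirr is the point far to the left, at -2.61.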

How the data were processed

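Gene-level read counts were taken from the table that the authors deposited, which holds raw counts for 23282 genes in 3 control libraries and 3 libraries treated with IL-1β for 24 h. Per the labels, QuantSeq 3′ libraries were read as single-end 75 nt reads and aligned with Bowtie2 to mm10. The counting tool and its handling of reads that match several genes are not given in the sources used here. The table also holds the authors' normalized values, fold changes and p-values, which were not used.

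The test was run with edgeR 4.0.16 under R 4.3.3 (filterByExpr, TMM, quasi-likelihood test, all 6 libraries, no covariates), with Benjamini-Hochberg adjustment over 11657 genes. Intervals at 95% come from the standard error, which is the log2 fold change divided by the square root of F. Ratios of 2 genes were compared by exact permutation tests in Python 3.11.15 with scipy 1.17.1. The ratio of Il1r2 to Il1r1, planned with the others, could not be formed because of counts of 0. The test was tried on simulated data.

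The members and gene lists were chosen with earlier results of these data known. All 10 members are named, from each pathway list at most 4 called genes with the smallest adjusted p, or the 2 most abundant where none was called, and from marker lists the most abundant. Socs1, Otud7b, Cyld, Dusp1, Clec4g, Kdr, Ahsg, C1qa, Marco and Adgre1 were added after their values were seen. Cps1, Timd4, Clec4f, the neutrophil markers without counts and the genes that follow Il1r1 in its cluster were also named outside these rules. Tf and Ly6g, in the marker lists, were not analysed here. Coordinates are those of the table, transcript ends are from GENCODE M21 and promoter windows from RefSeq (GRCm38.p6). All 10 genes had a window.

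Alternatives were DESeq2 1.42.0, limma 3.58.1 and Student's test on log2(CPM + 1), other scalings, no filter, a minimum of 10 counts in every sample, a block on the replicate number, omission of each library and, added after seeing the data, omission of the ribosomal RNA precursor Rn45s.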

Additional observations from a re-analysis of the deposited data

How the results depend on the processing

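Il1r1 and Irak3 were higher and passed the test in all 15 alternatives, with log2 fold changes of 1.99 to 2.13 and 1.98 to 2.47 and adjusted p of at most 0.00763 and 0.0465. The number of the 10 genes called was 4, and it was 2 (Il1r1 and Irak3) with Student's test on log2(CPM + 1) and 2 to 4 when each library was left out, the lowest without IL-1β replicate 3. It was 5, with Il1rap added, with no filter, with limma and with the replicate block. The count over all genes was 1563, 547 with Student's test, and 1131 to 1596 when each library was left out. That of pathway genes was 16, and 11 to 19 over the alternatives. Tollip lost its call in 4 alternatives and Irak2 in 6, and Il1rap gained one in 4. With at least 10 counts in every sample Il1rap gave no value. The cause of these changes was not tested.

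Values near 0 changed direction. Irak4, at -0.04, was 0.0328 without IL-1β replicate 2 and 0.00304 without control replicate 3, and Traf6, at 0.09, was -0.035 and -0.0775 without the same libraries. Leaving out each library gave -0.091 to 0.0328 for Irak4 and -0.0775 to 0.2 for Traf6. No ratio changed direction, and that of Il1rap to Il1r1 ranged from -1.39 to -0.3 when each library was left out.

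With scaling by total counts, 39.6% of the calls over all genes were higher and with upper-quartile scaling 45.3%, against 52.0% with TMM. Control and IL-1β libraries that share a replicate number deviated together only weakly (correlations of 0.075, 0.0275 and -0.00497). The labels do not say whether these numbers pair libraries, and weak correlations cannot settle it. The replicate block gave 1671 calls over all genes, and under it Il1rap was at 1.1 (adjusted p = 0.0478). At this depth, counts near 0 for Il1r2 and the other receptors of its cluster do not separate a low level from none.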
